A study of Mus musculus with 12 samples.

Results

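The genes described here are 34 genes of sterol and fatty acid synthesis, chosen by symbol from the 40847 genes of the count table. They were divided by role into a sterol branch of 19 genes, 5 genes that control the SREBP transcription factors, and a fatty acid branch of 10 genes. The cells were mouse fetal liver alveolar-like macrophages (FLAMs), which derive from fetal liver cells expanded in GM-CSF, a growth factor, and serve as a culture model of the macrophages of the lung's air spaces. All 4 groups were kept in 30 ng/ml recombinant mouse GM-CSF: untreated cells, cells kept with 20 ng/ml recombinant human TGFβ1 (TGFβ), cells given 25 ng/ml of the TLR2 ligand Pam3CSK4 for 18 h (Pam3), and cells given both (Pam3+TGFβ). Each group had 3 RNA-seq libraries, and the labels do not say whether these came from separate cultures or isolations, so p-values measure the spread between these libraries alone. Per its title, the series asked how TGFβ changes the response of these cells to TLR2 activation.

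Cholesterol is built from acetyl-CoA through mevalonate, isoprenoid diphosphates, squalene and lanosterol, and the mevalonate steps also feed the isoprenoid side chains of other molecules. Fatty acids are built from the same acetyl-CoA by acetyl-CoA carboxylase and fatty acid synthase, then elongated and desaturated. Both branches are classic targets of the SREBP factors, which are held in the endoplasmic reticulum by INSIG proteins when sterols are plentiful and are carried to the Golgi by SCAP when sterols are scarce. Alveolar macrophages are known for handling the lipids of lung surfactant.

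The sequences before the RefSeq starts of 5 members are shown first, because the letters bound by SREBP and by its partner factor NF-Y are the textbook link between these genes. The RefSeq promoter table (build GRCm38.p6) held 36 windows, from 250 bases before to 50 bases after a start, for 27 of the 34 members. Each window was searched on both strands for the SRE letters TCACNCCAC, the E-box CACGTG, the CCAAT box and, as GC box, the letters GGGCGG. The 200 bases before the RefSeq start are printed on the gene's strand, 5′ to 3′, with the matches in capitals. Coordinates are GRCm39 and come from an exact match of the sequence. The RefSeq start can lie inside the GENCODE gene span printed below: the stretches of Fasn and Fads2 lie wholly inside it, those of Idi1 and Hsd17b7 in part. Hmgcs1 is shown as the member whose window held the SRE letters, Idi1 and Hsd17b7 for their larger Pam3 response with TGFβ, Fasn for a Pam3 response that was lower with TGFβ than without, and Fads2 for the size of its difference with TGFβ.
Hmgcs1, chr13:120151687-120151886, plus strand: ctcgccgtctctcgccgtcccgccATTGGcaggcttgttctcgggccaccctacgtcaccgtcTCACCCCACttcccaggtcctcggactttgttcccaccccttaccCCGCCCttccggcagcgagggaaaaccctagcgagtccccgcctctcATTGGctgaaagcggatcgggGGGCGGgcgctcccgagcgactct
Idi1, chr13:8935442-8935641, plus strand: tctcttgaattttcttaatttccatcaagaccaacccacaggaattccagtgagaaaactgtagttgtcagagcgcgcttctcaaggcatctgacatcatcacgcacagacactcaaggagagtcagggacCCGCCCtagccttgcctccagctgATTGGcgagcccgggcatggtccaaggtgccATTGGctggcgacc
Hsd17b7, chr1:169796775-169796974, minus strand: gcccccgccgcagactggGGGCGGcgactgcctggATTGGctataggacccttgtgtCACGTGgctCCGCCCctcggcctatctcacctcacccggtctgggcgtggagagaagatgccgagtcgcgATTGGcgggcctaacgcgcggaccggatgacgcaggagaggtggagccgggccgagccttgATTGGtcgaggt
Fasn, chr11:120715374-120715573, minus strand: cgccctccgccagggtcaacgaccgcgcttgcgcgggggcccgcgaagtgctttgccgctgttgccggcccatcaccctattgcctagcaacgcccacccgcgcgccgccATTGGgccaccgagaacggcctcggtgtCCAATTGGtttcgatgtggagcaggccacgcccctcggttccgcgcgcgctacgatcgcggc
Fads2, chr19:10078868-10079067, minus strand: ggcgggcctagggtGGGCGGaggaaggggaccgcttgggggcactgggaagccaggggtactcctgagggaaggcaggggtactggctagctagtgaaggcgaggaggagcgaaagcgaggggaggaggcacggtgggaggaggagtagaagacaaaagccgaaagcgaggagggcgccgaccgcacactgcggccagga

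The SRE letters were in the window of Hmgcs1 alone, starting 137 bases before the start, which is 1 of the 36 member windows. Of all 32851 windows in the table, 1.24% held them. CCAAT boxes were in 14 of 18 sterol windows (77.8%) and 4 of 8 fatty acid windows (50%), against 37.4% of all windows. GC boxes were in 15 of 18 sterol windows (83.3%) and 4 of 8 fatty acid windows, against 35.7% of all windows. The printed stretch of Hsd17b7 held 3 CCAAT boxes, 2 GC boxes and an E-box, while that of Fads2 held 1 GC box and no other match. E-boxes were in 6 of 36 member windows (16.7%), those of Dhcr7, Hsd17b7, Insig1, Sc5d and Scap, against 7.15% of all windows. No match says only that these letters are not in this window.

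All 34 members passed the filter on low counts, and the lowest count of any member in any library was 237. Library totals ran from 34036650 to 44374115 counts. Replicates of the same group differed beyond sampling noise in every pair, and the pairs that held untreated 3, Pam3 1 or TGFβ 2 stood apart, with a chi-square per degree of freedom of 133 to 220 against 9.99 to 28 in the other pairs. Counts of members are therefore also given without these 3 libraries. The 7 macrophage markers were above 1 CPM (a gene's TMM-scaled rate among the counts of its library) in all 12 libraries, as were 7 of 8 alveolar macrophage markers. The alveolar list was divided by TGFβ at rest: Siglecf (log2 fold change 3.22), Bhlhe41 (1.09), Pparg (0.94), Car4 (0.79) and Cebpb (0.56) were called higher, and Fabp4 (-7.86), Marco (-4.12) and Itgax lower, the last by 2-fold. In that comparison 22.9% of all tested genes were called higher and 28.1% lower. Fabp4 stood at 0.0741 to 0.233 CPM in the TGFβ-kept libraries and at 20.9 to 32.2 CPM in the others. Of 29 markers of other cell types in 8 lists, 9 were at 0 in all libraries and 2 were above 1 CPM in all: Afp, a fetal liver gene, at 5.63 to 10.1 CPM, and Zbtb46, a dendritic cell gene, at 1.11 to 5.05 CPM. Of these 29 markers 9 passed the filter on low counts. With TGFβ at rest, 4 of the 9 were called lower (Cdh5, -4.01 on the log2 scale, Cpa3, -4.00, Kdr, -3.39, and Zbtb46, -1.70) and Camp higher (3.89). Among all tested genes, 28.1% were called lower and 22.9% higher. In Pam3+TGFβ against Pam3 cells, 3 of the 9 were lower (Cpa3, -2.93, Cdh5, -2.56, and Zbtb46, -1.40) and Afp higher (0.40). There 23.8% of all tested genes were called lower and 21.5% higher. Pam3 raised Camp without TGFβ (5.08), and with TGFβ it raised Kdr (2.67) and Afp (0.65) and lowered Epor (-1.30). To Pam3, 9.62% of all tested genes were called higher and 8.66% lower without TGFβ, and 20.4% and 18.1% with it. Camp, Cdh5, Cpa3 and Kdr were scarce, at 0 to 1.65 CPM. Their part in the results was not tested. In bulk RNA, fewer cells of a type and less RNA per cell cannot be told apart.

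Per kilobase of exon, the most abundant member in untreated cells was Scd2, a stearoyl-CoA desaturase, at 169 CPM per kb. Hmgcs1, which makes HMG-CoA, followed at 49.8, then Acly, which makes cytosolic acetyl-CoA from citrate, at 48.4, and Fasn, fatty acid synthase, at 46.7 CPM per kb. The lowest was Me1, malic enzyme, which supplies NADPH, at 1.2 CPM per kb. With TGFβ alone the order at the top changed: Scd2 stood at 323, Scd1 at 97.7, Fasn at 90.5 and Hmgcs1 at 88.8 CPM per kb. Levels below are CPM, which compare libraries and not genes.

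Both branches stood higher in every TGFβ-kept library than in any library without TGFβ, with or without Pam3. The summed level of the sterol branch was 1788 ± 34.6 CPM (SD, n = 3) in untreated cells and 1821 ± 83 after Pam3, against 2974 ± 54.1 in the TGFβ group and 2941 ± 54.9 in the Pam3+TGFβ group. The summed level of the fatty acid branch was 3046 ± 48.9 CPM in untreated cells and 3124 ± 32.5 after Pam3, against 5900 ± 116 in the TGFβ group and 5074 ± 166 in the Pam3+TGFβ group. Pam3 thus left the sterol sum within 1 SD of its value without Pam3, both with and without TGFβ, while the fatty acid sum with both agents was below that with TGFβ alone in every library: 4959 to 5264 CPM against 5790 to 6022 CPM.

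**Figure D1:**
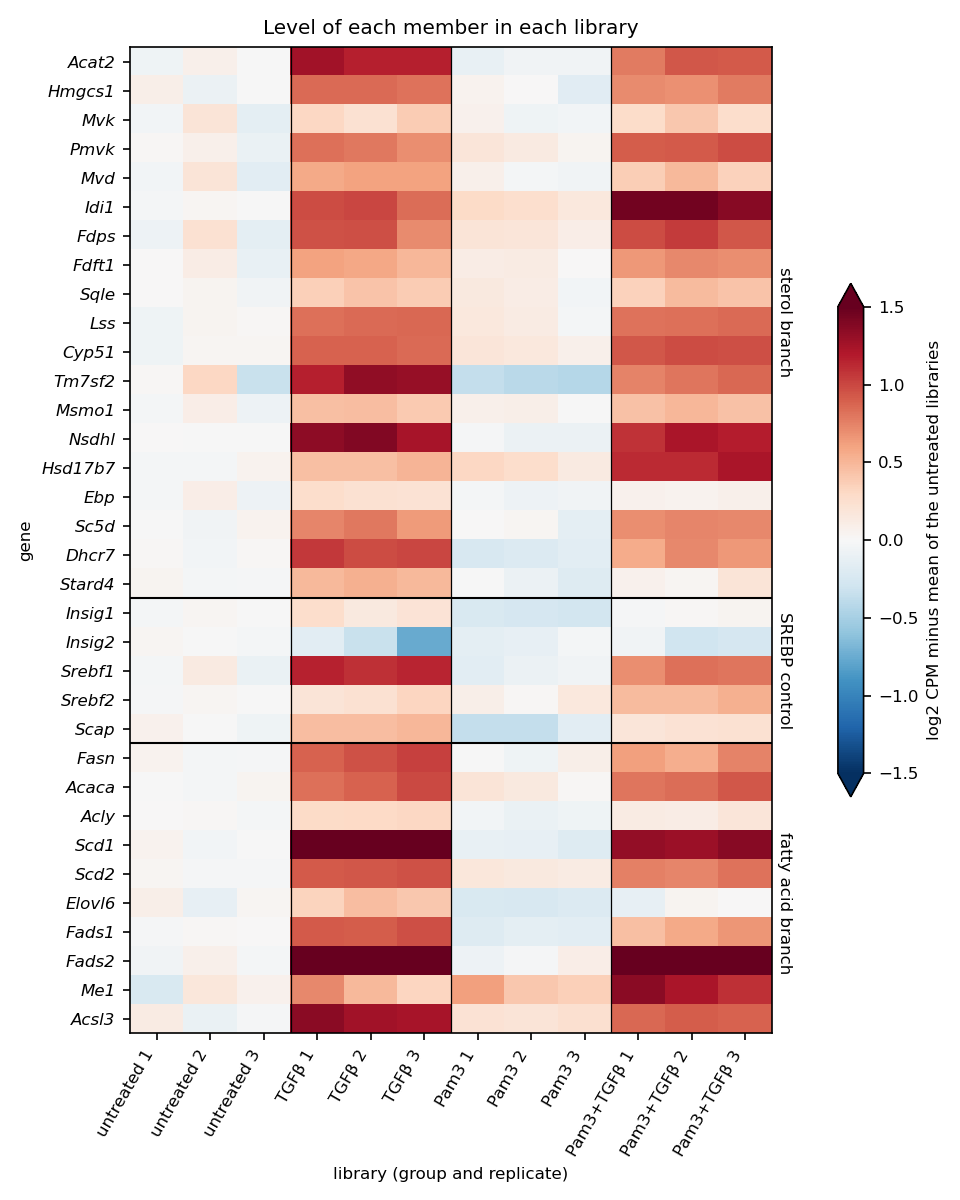
Level of each of the 34 members in each of the 12 libraries, as log2 CPM minus the mean of the 3 untreated libraries, with the sterol branch, the SREBP control genes and the fatty acid branch from top to bottom. The TGFβ columns are red in every line but that of Insig2, the Pam3+TGFβ columns are red in most and pale for Ebp, Stard4, Insig1 and Elovl6, and the Pam3 columns stay near the untreated ones. Fads2 runs past the end of the colour scale in the TGFβ and Pam3+TGFβ columns, and Scd1 does so in the TGFβ columns.

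The TGFβ effect without Pam3 compares TGFβ-kept with untreated resting cells. The whole sterol branch rose: 19 of 19 members were called higher and 0 lower (edgeR quasi-likelihood test, Benjamini-Hochberg adjusted p under 0.05), where 22.9% of all 14749 tested genes were called higher and 28.1% lower. The median log2 fold change of the branch was 0.77, with a range of 0.24 to 1.32, against -0.008 over all tested genes. The fatty acid branch rose as completely, with 10 of 10 members called higher, a median of 0.94 and a range of 0.30 to 2.87. Without the 3 libraries that stood apart, the counts were again 19 of 19 and 10 of 10.

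Of the 7 mevalonate genes, Acat2, the cytosolic acetoacetyl-CoA thiolase that opens the pathway (chr17:13161367-13179641), changed most. Its level was 53.6, 58.9 and 55.9 CPM in untreated libraries 1 to 3 and 134, 126 and 126 CPM with TGFβ. The groups did not overlap, and the log2 fold change was 1.20 ± 0.056 (SE), with an adjusted p of 1.93e-15. Idi1, isopentenyl-diphosphate isomerase (chr13:8935537-8942487), stood at 100, 104 and 101 CPM untreated and at 200, 204 and 182 CPM with TGFβ, a log2 fold change of 0.94 ± 0.05 (adjusted p = 2.42e-14). Fdps, farnesyl diphosphate synthase, and Hmgcs1 rose by 0.87 and 0.84 on the log2 scale. The 2 kinases of the pathway moved unequally, Pmvk by 0.77 and Mvk by 0.30.

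Nsdhl, a dehydrogenase that removes the methyl groups of lanosterol derivatives (chrX:71961712-72002129), had the largest change of the sterol branch. Its level was 55.6, 55.1 and 55 CPM in the untreated libraries and 140, 145 and 130 CPM with TGFβ, a 2.5-fold difference (log2 fold change 1.32 ± 0.054, adjusted p = 1.28e-16). Tm7sf2, a sterol reductase (chr19:6112851-6118403), was the least abundant sterol gene per kilobase in untreated cells. It rose from 11.7, 14.3 and 9.18 CPM to 25.9, 29 and 28.5 CPM, a log2 fold change of 1.24 ± 0.11 (adjusted p = 4.85e-10). Dhcr7, which catalyses the last reduction to cholesterol, rose by 1.02. The smallest changes of this arm were those of Ebp, a sterol isomerase, at 0.24 ± 0.054, Sqle, squalene epoxidase, at 0.39 ± 0.05 and Msmo1, the partner of Nsdhl in demethylation, at 0.43 ± 0.047. Sqle is known as a rate-limiting step of the pathway, and its change was below the branch median. Stard4, a carrier of sterols through the cytosol, stood at 149, 142 and 143 CPM untreated and at 202, 209 and 203 CPM with TGFβ, a log2 fold change of 0.50 ± 0.052 (adjusted p = 1e-08).

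In the fatty acid branch, Fads2, the desaturase that opens the synthesis of polyunsaturated fatty acids (chr19:10038130-10079203), had the largest change of all members. Its level was 52.6, 57.2 and 53.4 CPM in untreated cells and 396, 396 and 398 CPM with TGFβ. This 7.29-fold difference (log2 fold change 2.87 ± 0.049, adjusted p = 4.21e-24) far exceeded the spread between replicates. Fads1, its neighbour on chromosome 19 and the next desaturase of the same path, rose less, by 0.93 ± 0.052. Scd1, a desaturase that makes monounsaturated fatty acids (chr19:44382894-44399154), rose from 227, 213 and 218 CPM to 694, 696 and 722 CPM, a log2 fold change of 1.68 ± 0.047 (adjusted p = 4.36e-20). Scd2, its neighbour with the same activity (chr19:44281613-44295303), rose from 1295, 1256 and 1259 CPM to 2398, 2429 and 2459 CPM, a log2 fold change of 0.94 ± 0.05. These 4 desaturase genes thus all rose, with larger log2 fold changes for Fads2 and Scd1 than for their neighbours Fads1 and Scd2.

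Acsl3, a long-chain acyl-CoA synthetase (chr1:78635537-78685461), stood at 22, 18.9 and 20 CPM untreated and at 51.8, 48.5 and 47.9 CPM with TGFβ, a log2 fold change of 1.28 ± 0.07 (adjusted p = 3.91e-14). Fasn (chr11:120696672-120715995) rose from 566, 536 and 540 CPM to 1007, 1059 and 1112 CPM, by 0.95 ± 0.058, and Acaca, the acetyl-CoA carboxylase that supplies it, by 0.90 ± 0.057. Acly and Elovl6 moved less than Fasn and Acaca. Acly rose by 0.30 ± 0.047 and Elovl6, an elongase, from 65.6, 56.6 and 62.6 CPM to 77.5, 84.5 and 81.5 CPM, by 0.40 ± 0.062. Me1 rose from 6.23, 8.18 and 7.59 CPM to 12, 10.2 and 9.12 CPM, by 0.51 ± 0.12 (adjusted p = 0.00109).

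Of the 5 control genes, 4 were called higher with TGFβ (22.9% of all tested genes) and 1 lower (28.1% of all tested genes). Srebf1, which encodes the SREBP that drives chiefly fatty acid genes (chr11:60089913-60113407), stood at 157, 176 and 150 CPM untreated and at 358, 343 and 354 CPM with TGFβ, a log2 fold change of 1.13 ± 0.051 (adjusted p = 1.38e-15). Srebf2, which encodes the SREBP that drives chiefly sterol genes (chr15:82031382-82093201), moved much less, from 326, 337 and 328 CPM to 379, 386 and 414 CPM, by 0.25 ± 0.048 (adjusted p = 8.79e-05). The groups did not overlap for either gene. Scap rose by 0.48 ± 0.058. Insig1, itself a known SREBP target, rose from 146, 152 and 148 CPM to 179, 164 and 171 CPM, by 0.21 ± 0.045. Insig2 fell from 19.6, 19 and 18.8 CPM to 17.2, 15.2 and 11.3 CPM, a log2 fold change of -0.39 ± 0.11 (adjusted p = 0.00409), and this call was lost without TGFβ 3, its lowest library.

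With Pam3 present, the TGFβ effect compares Pam3+TGFβ with Pam3. Here 18 of 19 sterol genes, 4 of 5 control genes and 10 of 10 fatty acid genes were called higher and 0 lower, against 21.5% of all tested genes called higher and 23.8% lower, and the counts were 18, 4 and 10 without the 3 libraries that stood apart. The median log2 fold change was 0.76 in the sterol branch and 0.70 in the fatty acid branch, against -0.002 over all tested genes. The sterol gene not called was Ebp, at 0.12 ± 0.054 (adjusted p = 0.0821), and the control gene not called was Insig2, at -0.11 ± 0.11 (adjusted p = 0.46). Fads2 again changed most, from 51.7, 53.5 and 58.2 CPM with Pam3 to 352, 372 and 365 CPM with both, a log2 fold change of 2.74 ± 0.049, followed by Scd1 at 1.46 ± 0.047. In the sterol branch the largest changes were those of Nsdhl at 1.22 ± 0.054, Tm7sf2 at 1.20 ± 0.11 and Idi1 at 1.19 ± 0.05. The 2 TGFβ effects, which share no library, ran alike across the 34 members (Pearson's r = 0.93, Spearman's rho = 0.81), against r = 0.77 and rho = 0.67 over the 14749 tested genes. By branch, r was 0.87 and rho 0.85 over the 19 sterol genes, and r was 0.96 and rho 0.61 over the 10 fatty acid genes, the last below the value over all genes. Genes are not independent replicates.

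**Figure D2:**
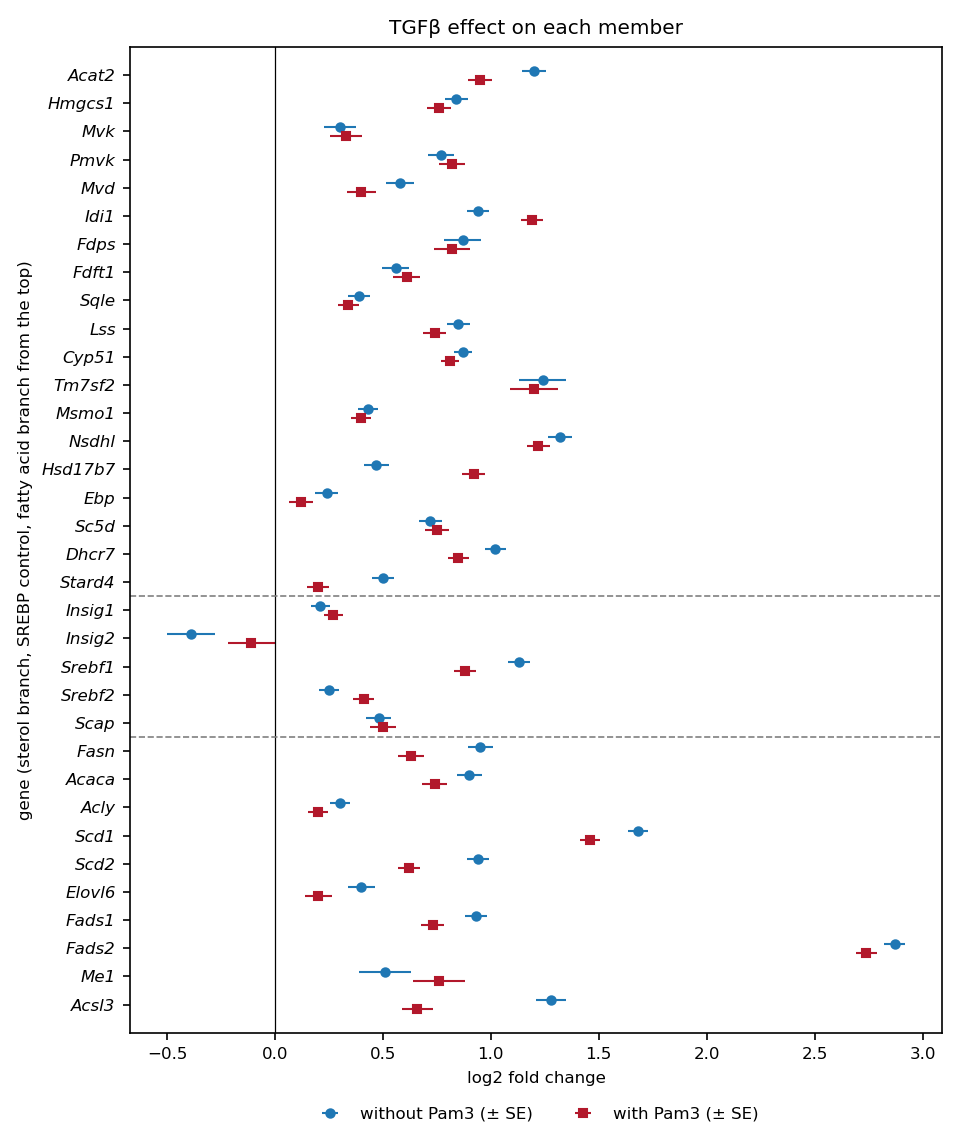
TGFβ effect on each member as log2 fold change ± SE, with circles for cells without Pam3 and squares for cells with Pam3 (3 libraries per group, edgeR). All points lie right of 0 except those of Insig2, and Fads2 (2.87 and 2.74) and Scd1 (1.68 and 1.46) lie farthest right.

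Dividing-cell markers moved with these results. With TGFβ, 5 of 8 (Cdk1, Mcm2, Mcm5, Pcna and Top2a) were called higher without Pam3 (22.9% of all tested genes) and 8 of 8 with Pam3 (21.5%), and the summed level of the list was 1112 to 1173 CPM in untreated cells and 1010 to 1026 after Pam3, against 1300 to 1372 in the TGFβ group and 1306 to 1344 in the Pam3+TGFβ group. Their part in the results was not tested. Of the 7 macrophage markers, 5 were called lower and 1 higher (Fcgr1, 0.17) with TGFβ at rest, where 28.1% of all tested genes were lower. With Pam3 present, 4 were called lower (23.8% of all tested genes) and 2 higher (Fcgr1, 0.96, and Mertk, 0.24), the latter near the 21.5% of all tested genes.

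The Pam3 response without TGFβ compares Pam3 with untreated cells, and neither branch moved as a whole. In the sterol branch 3 of 19 members were called higher and 2 lower, against 9.62% of all tested genes called higher and 8.66% lower, and the median log2 fold change was -0.01. In the fatty acid branch 3 of 10 were called higher and 3 lower, with a median of 0.00, and the median over all tested genes was 0.000. Without the 3 libraries that stood apart, 3 sterol genes (2 higher, 1 lower) and 0 fatty acid genes were called, so none of the 6 fatty acid calls was kept. Leaving out Pam3 1, Pam3 2, Pam3 3 or untreated 1 alone left 2 of the 6 fatty acid calls, and leaving out untreated 3 left 3. Among dividing-cell markers, 3 of 8 were called lower (Ccnb1, Cdk1 and Top2a) and 0 higher. Of the 7 macrophage markers, 2 were called higher (Adgre1, 0.65, and Csf1r, 0.33) and 2 lower (Mrc1, -0.33, and Mertk, -0.21). Of the 8 alveolar macrophage markers, 4 were called higher (Bhlhe41, Car4, Itgax and Marco) and 3 lower (Fabp4, Pparg and Siglecf). The part of these markers was not tested.

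The called changes of the members were small. Hsd17b7, a keto reductase of the demethylation steps (chr1:169777093-169796813), rose from 63, 62.6 and 66.6 CPM to 79.2, 77 and 70.1 CPM, a log2 fold change of 0.24 ± 0.056 (adjusted p = 0.00321). Idi1 rose from 100, 104 and 101 CPM to 124, 121 and 113 CPM, by 0.23 ± 0.05, and Cyp51, the lanosterol demethylase, by 0.14 ± 0.042, a call that was lost without Pam3 1, Pam3 2 or untreated 1. Tm7sf2 fell from 11.7, 14.3 and 9.18 CPM to 9.03, 8.71 and 8.61 CPM (-0.42 ± 0.11, adjusted p = 0.0109), and this call was lost without untreated 2, its highest library. Dhcr7 was called lower at -0.20 ± 0.049, which was lost without the 3 libraries that stood apart. The lowest Pam3 value was above the highest untreated value for Hsd17b7 and Idi1, but by less than the range of the Pam3 libraries.

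In the fatty acid branch Me1 rose from 6.23, 8.18 and 7.59 CPM to 11.2, 9.64 and 9.31 CPM (0.46 ± 0.12, adjusted p = 0.00938). Elovl6 fell from 65.6, 56.6 and 62.6 CPM to 52.4, 52.1 and 53.5 CPM (-0.23 ± 0.063, adjusted p = 0.0119). Acsl3 and Scd2 were called higher, at 0.22 ± 0.071 and 0.14 ± 0.049, and Fads1 and Scd1 lower, at -0.17 ± 0.052 and -0.14 ± 0.046. Among single libraries left out, the call of Me1 was lost without Pam3 1 or untreated 1 and that of Elovl6 without untreated 1, and each of the other 4 was lost for at least 4 libraries. Fads2 stood at 51.7, 53.5 and 58.2 CPM with Pam3, inside which range all untreated values fell, and its log2 fold change was 0.00 ± 0.048. Fasn was at 0.01 ± 0.057. Of the control genes, Insig1 fell to 127, 125 and 123 CPM (-0.25 ± 0.045, adjusted p = 0.000239) and Scap by 0.29 on the log2 scale, while Srebf1 was at -0.10 ± 0.051 and Srebf2 at 0.09 ± 0.048.

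In TGFβ-kept cells, the Pam3 response (Pam3+TGFβ against TGFβ) was mostly downward in the fatty acid branch. Of its 10 members, 8 were called lower and 1 higher, against 18.1% of all tested genes called lower and 20.4% higher, and the median log2 fold change was -0.24 against -0.019 over all tested genes. Without the 3 libraries that stood apart, the counts were again 8 and 1. The sterol branch was split, with 3 of 19 members called higher and 7 lower and a median of 0.00, or 2 higher and 6 lower without those libraries. Of the control genes, 1 of 5 was called higher and 3 lower. In the same comparison 3 of 8 dividing-cell markers were called lower (Mcm2, -0.26, Pcna, -0.24, and Mcm5, -0.15) and 0 higher. Of the 8 alveolar macrophage markers, 5 were called higher (Bhlhe41, Car4, Cebpb, Itgax and Marco) and 2 lower (Pparg and Siglecf). Of the 7 macrophage markers, 4 were called higher (Fcgr1, 0.91, Adgre1, 0.90, Lyz2, 0.61, and Csf1r, 0.60) and 1 lower (Mrc1, -0.63). Cd68 and Mertk were not called. The summed level of the 7 was 17512 to 18438 CPM in the TGFβ group and 25990 to 26656 CPM in the Pam3+TGFβ group. Most of this sum was Lyz2, at 14731 to 15612 and 22840 to 23542 CPM. The part of these markers in the result was not tested.

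Elovl6 fell from 77.5, 84.5 and 81.5 CPM with TGFβ to 56.6, 63.3 and 61.9 CPM with both (-0.42 ± 0.062, adjusted p = 4.62e-06). Its untreated values were 65.6, 56.6 and 62.6 CPM. Acsl3 fell from 51.8, 48.5 and 47.9 CPM to 36.8, 37.9 and 37.4 CPM (-0.40 ± 0.068, adjusted p = 2.72e-05). Scd1 fell from 694, 696 and 722 CPM to 548, 534 and 563 CPM (-0.36 ± 0.046). The groups did not overlap for these 3 genes. Fads1 fell by 0.37 on the log2 scale, and Fasn, from 1007, 1059 and 1112 CPM to 838, 800 and 918 CPM, by 0.31. Scd2 went from 2398, 2429 and 2459 CPM to 2137, 2116 and 2229 CPM (-0.17 ± 0.049), Acly changed by -0.16 ± 0.047 and Fads2 by -0.13 ± 0.045, the latter call being lost without Pam3+TGFβ 1. Acaca was not called, at -0.04 ± 0.056. Me1 was the exception, rising from 12, 10.2 and 9.12 CPM to 18.6, 17 and 15.6 CPM (0.71 ± 0.12, adjusted p = 1.79e-05).

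Among the sterol genes, Hsd17b7 rose from 87.8, 87.7 and 91.4 CPM with TGFβ to 139, 139 and 150 CPM with both, a 1.6-fold difference (0.68 ± 0.055, adjusted p = 1.62e-10). Idi1 rose from 200, 204 and 182 CPM to 278, 277 and 262 CPM (0.48 ± 0.049, adjusted p = 1.26e-08). Both were at their highest in the 3 libraries given both agents. Pmvk was called higher at 0.17 ± 0.059, a call that was lost in 8 of the 21 other settings run, among them each that left out 1 Pam3+TGFβ library, TGFβ 2, TGFβ 3 or untreated 1. Mvd, the mevalonate diphosphate decarboxylase, was called lower at -0.18 ± 0.065 (lost without Pam3+TGFβ 1 or Pam3+TGFβ 3), Nsdhl at -0.16 ± 0.053 (lost without Pam3+TGFβ 1 or TGFβ 2) and Ebp at -0.18 ± 0.054. The largest decreases were those of Tm7sf2, which went from 25.9, 29 and 28.5 CPM to 19.4, 20.2 and 21 CPM (-0.46 ± 0.1), Stard4, which went from 202, 209 and 203 CPM to 151, 148 and 166 CPM (-0.40 ± 0.052), and Dhcr7 (-0.37 ± 0.048). Acat2 fell from 134, 126 and 126 CPM to 96.4, 107 and 106 CPM (-0.32 ± 0.055). Srebf1 fell from 358, 343 and 354 CPM to 261, 285 and 281 CPM (-0.35 ± 0.051, adjusted p = 3.54e-06), while Srebf2 rose from 379, 386 and 414 CPM to 460, 459 and 477 CPM (0.24 ± 0.048, adjusted p = 0.000198). The 2 SREBP genes thus moved in opposite directions, each without overlap between the groups. Insig1 changed from 179, 164 and 171 CPM to 147, 151 and 153 CPM (-0.19 ± 0.045).

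**Figure D3:**
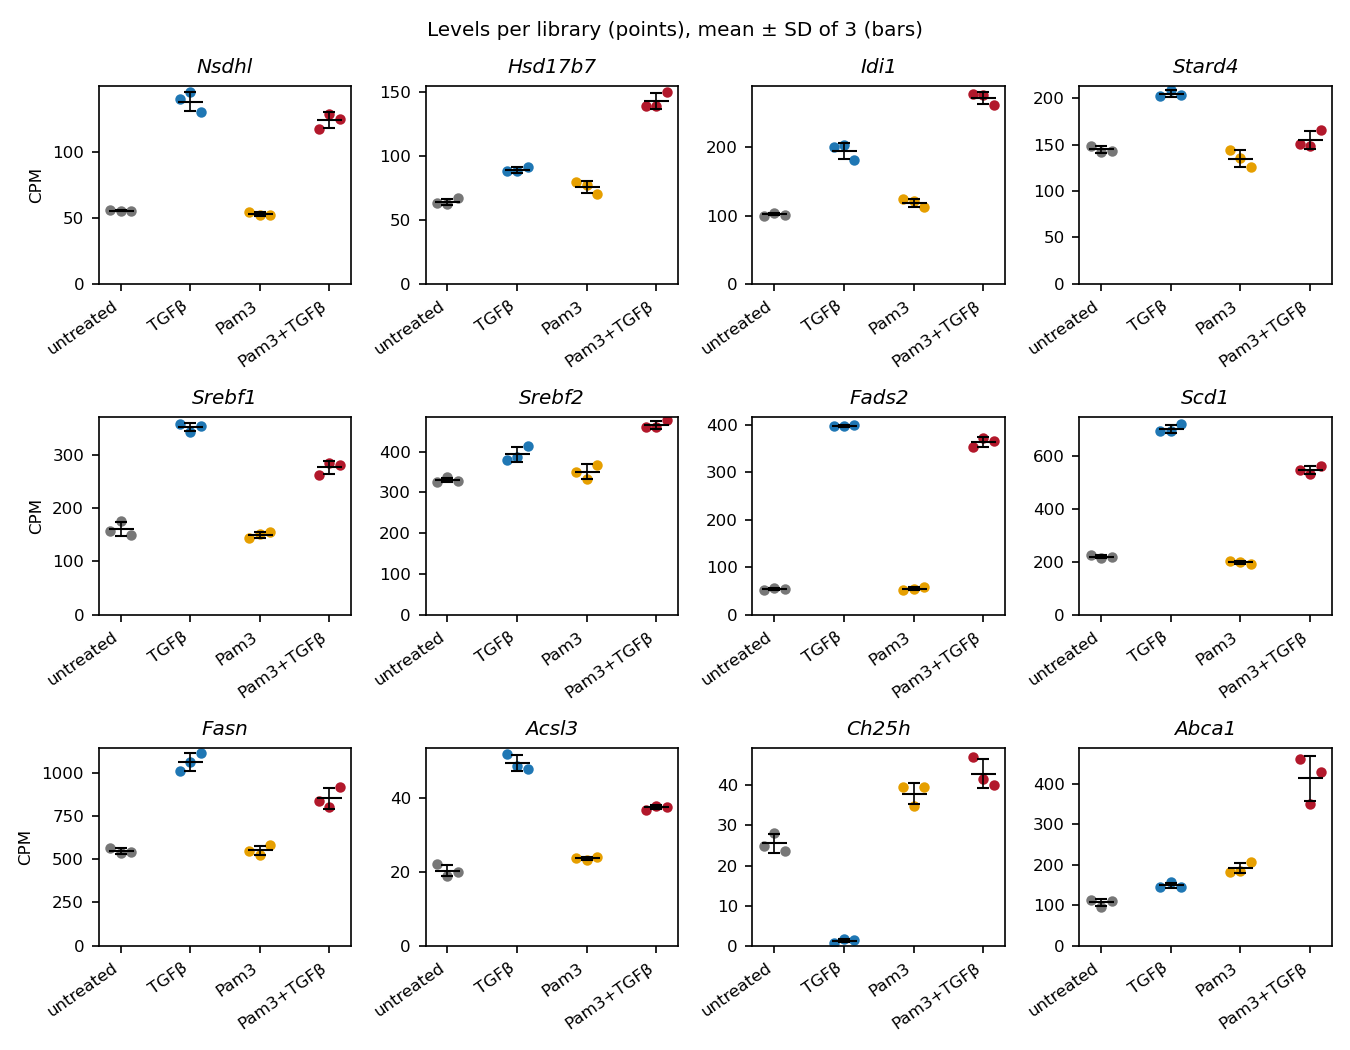
CPM in each library (points) with the mean ± SD of 3 (bars) for 10 members and for Ch25h and Abca1, in untreated, TGFβ, Pam3 and Pam3+TGFβ cells, each panel starting at 0. Hsd17b7, Idi1 and Srebf2 were highest with both agents, while Srebf1, Fads2, Scd1, Fasn, Acsl3 and Stard4 were highest with TGFβ alone.

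The interaction tests whether the 2 Pam3 responses differ, and is given as the log2 fold change in TGFβ-kept cells less that in cells without TGFβ. In the fatty acid branch 4 of 10 members were called lower and 0 higher, against 5.67% of all tested genes called lower and 10.3% higher. The branch median was -0.20 and 9 of 10 estimates were negative, against a median of 0.005 and 7291 of 14749 negative over all tested genes. In the sterol branch 2 of 19 were called higher and 2 lower, with a median of -0.05, and of the control genes 0 were called higher and 1 lower. Without the 3 libraries that stood apart, 3 fatty acid genes (all lower), 3 sterol genes (2 higher, 1 lower) and 1 control gene (lower) were called. The interaction was also called for all 7 macrophage markers, 6 higher (0.24 to 0.79) and Mrc1 lower (-0.30), and for 4 of 8 dividing-cell markers, higher for Ccnb1 (0.36), Mki67 (0.29) and Top2a (0.21) and lower for Mcm2 (-0.26). Their part in the interaction of the members was not tested.

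The largest interaction of the fatty acid branch was that of Acsl3, whose Pam3 response was 0.22 without TGFβ and -0.40 with it, a difference of -0.62 ± 0.098 (adjusted p = 4.26e-05). Fasn was at 0.01 without TGFβ and -0.31 with it, a difference of -0.32 ± 0.081 (adjusted p = 0.00617). Scd2 was at 0.14 and -0.17, a difference of -0.31 ± 0.07 (adjusted p = 0.0021). These 3 calls were kept under every setting run. Scd1, at -0.22 ± 0.065 (adjusted p = 0.0207), lost its call in 5 settings, among them those without Pam3 1, Pam3 2 or untreated 3. Fads1 missed the threshold at -0.20 ± 0.073 (adjusted p = 0.0621) and passed it in 4 settings, among them that without Pam3+TGFβ 3.

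In the sterol branch, Hsd17b7 had the largest interaction, 0.44 ± 0.078 (adjusted p = 0.000163), which was called in every setting run. The interaction of Stard4 was -0.31 ± 0.074 (adjusted p = 0.0044), that of Acat2 -0.25 ± 0.079 (adjusted p = 0.0306) and that of Idi1 0.25 ± 0.07 (adjusted p = 0.0145). The call of Acat2 was lost without Pam3 2, Pam3 3, Pam3+TGFβ 1, untreated 1 or TGFβ 1, and that of Idi1 without Pam3+TGFβ 1, Pam3+TGFβ 2 or TGFβ 3. Leaving out Pam3+TGFβ 1 left 2 sterol calls. Stard4 lost its call when the 3 libraries that stood apart were left out together. Of the control genes, Srebf1 was called at -0.25 ± 0.072 (adjusted p = 0.0168), which was lost without Pam3 2, Pam3 3 or untreated 3. Srebf2 was at 0.16 ± 0.068 (adjusted p = 0.136).

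**Figure D4:**
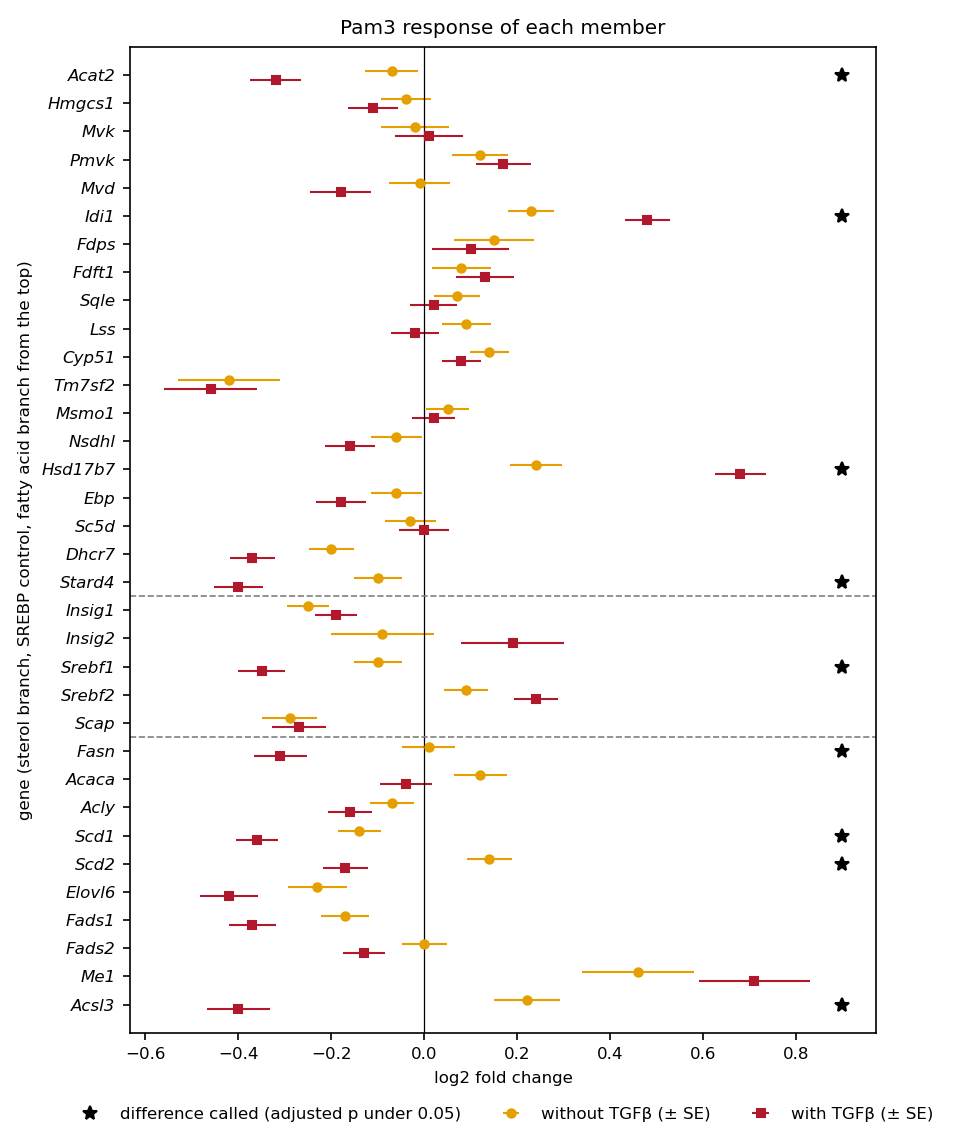
Pam3 response of each member as log2 fold change ± SE, with circles for cells without TGFβ and squares for TGFβ-kept cells (3 libraries per group, edgeR), and a star where the interaction was called. Squares lie left of circles in most of the fatty acid branch, by the most for Acsl3 (0.22 and -0.40), and right of them for Hsd17b7 (0.24 and 0.68) and Idi1 (0.23 and 0.48).

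Of 42 other genes of both pathways, 38 were tested. With TGFβ at rest, 18 were called higher (47.4%, against 22.9% of all tested genes) and 13 lower (34.2%, against 28.1%). With Pam3 present, 19 were called higher (50%, against 21.5%) and 8 lower (21.1%, against 23.8%). Acss2, which makes acetyl-CoA from acetate, rose the most, from 10.5, 10 and 8.04 CPM to 38.3, 41.1 and 41.3 CPM (2.08 ± 0.088 at rest, 1.82 ± 0.086 with Pam3). Scd3 rose by 1.20 ± 0.46 and Acacb, the other acetyl-CoA carboxylase, changed by -1.36 ± 0.47 at rest, with values of 1.38 ± 0.46 and -1.75 ± 0.49 in the presence of Pam3. Both were scarce, with group means of at most 1.05 CPM. The 16 tested sterol and control genes among them held 6 called higher and 6 called lower at rest, 37.5% each. To Pam3 without TGFβ, 8 of the 38 were called higher (21.1%, against 9.62%) and 4 lower (10.5%, near the 8.66% of all tested genes), led by Acsl1, an acyl-CoA synthetase, at 0.66 ± 0.055, Lpin1, a phosphatidate phosphatase, at -0.65 ± 0.056 and Acss2 at 0.47 ± 0.09. With TGFβ, 12 were called higher (31.6%, against 20.4%) and 6 lower (15.8%, against 18.1%), led by Lpin1 at -1.22 ± 0.056, Acsl1 at 1.05 ± 0.055 and Acsl4 at 0.81 ± 0.054. The interaction was called higher for 3 and lower for 3 (7.89% each, near the 10.3% and 5.67% of all tested genes), led by Lpin1 at -0.56 ± 0.079, Hacd2, a dehydratase of fatty acid elongation, at -0.43 ± 0.13 and Acsl1 at 0.39 ± 0.077. Acsl1 and Acsl4 thus rose with Pam3 in TGFβ-kept cells, where Acsl3 fell.

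Ch25h, which makes an oxysterol that restrains SREBP processing, stood at 24.9, 28.1 and 23.6 CPM untreated, 0.803, 1.68 and 1.44 with TGFβ, 39.5, 34.9 and 39.5 with Pam3 and 47, 41.5 and 40.2 with both, an interaction of 4.45 ± 0.19 (adjusted p = 4.5e-13). Abca1, a cholesterol exporter, rose with Pam3 by 0.85 ± 0.098 without TGFβ and 1.47 ± 0.098 with it (interaction 0.62 ± 0.14, adjusted p = 0.00936), while Mylip, a ubiquitin ligase, and Nr1h3, the oxysterol receptor LXRα, had interactions of -0.33 ± 0.094 and 0.48 ± 0.11.

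Some members share sequence with other genes, and the count settings for reads that fit more than 1 place, and for strand, are not given in the sources used here. Idi1 is uncertain: its processed pseudogene Idi1-ps1 matches it at 100% over 684 bases, held 84293 counts over the 12 libraries against 78505 for Idi1, and had log2 fold changes equal to those of Idi1 to 2 decimals in all 5 comparisons. Acat2 matches Acat3 at 98.5% over 1414 bases, with 7262 counts for Acat3 against 38946. Scd2 matches Scd1 at 95.5% over 623 bases. Fdft1, squalene synthase, shares 24.8% of its exonic bases with Ctsb on the opposite strand, a gene with 950548 counts that changed by -1.31 with TGFβ at rest, while Fdft1 rose by 0.56. Me1 shares 2146 of its 6125 exonic bases with Rwdd2a on the opposite strand, which had 693 counts and changed by -1.07 ± 0.34 with TGFβ at rest. Cyp51 shares 21.1% with Akap9 on the opposite strand, which had 28173 counts and was called in none of the 5 comparisons. Tm7sf2 shares 10.8% with Vps51 on the same strand, which had 22050 counts and changed by -0.24 ± 0.072 with TGFβ at rest. Acsl3 shares 15.4% of its exonic bases with Utp14b on the same strand, which had 7853 counts. Utp14b rose with TGFβ by 1.46 ± 0.13 at rest and 1.30 ± 0.13 with Pam3, beside 1.28 and 0.66 for Acsl3, and its interaction was -0.16 ± 0.18.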

How the data were processed

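Polyadenylated RNA of 12 FLAM libraries, 3 in each of 4 groups named by the sample titles, was sequenced after stranded library preparation, per the labels' protocols. Per the submitters' processing notes, the tools were bcl2fastq 2.20.0, FastQC 0.11.7, Bowtie2 2.4.1, featureCounts of Subread 2.0.0, DESeq2 1.36.0 and R 4.2.1, with build GRCm39. How featureCounts was set for strand, for reads with several alignments and for annotation is not given in the sources used here. The authors deposited whole counts per gene symbol, and a normalized signal that equals the count divided by a constant per library, from the values of the deposited files.

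In R 4.3.3, edgeR 4.0.16 kept 14749 genes (filterByExpr, minimum count 10), scaled the libraries by TMM and fitted the robust quasi-likelihood model to the raw counts of the 12 libraries with 4 group means. The 5 comparisons were the Pam3 response without and with TGFβ, the TGFβ effect without and with Pam3, and the interaction. The call threshold was an adjusted p of 0.05 (Benjamini-Hochberg, adjusted over the whole tested table), and every adjusted p comes from edgeR. The SE is the size of the log2 fold change divided by the square root of F. Levels are TMM-scaled CPM. Positions, exon overlaps and look-alikes (blastn 2.17.0, at least 95% identity over 500 bases) used GENCODE M39 of GRCm39, and promoters were RefSeq windows. 

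On simulated counts for the interaction over 14472 genes, the test recovered 88 of 100 genes changed by a log2 fold of 1 and 96 of 100 changed by 2, with 12 false calls among 196. Alternatives were RLE and upper-quartile scaling, DESeq2 1.42.0, limma-trend (limma 3.58.1) on log2 of the normalized signal plus 1, a replicate block, no filter, a filter of 10 counts in each library, the 6 libraries compared, and each library left out. Leaving out the 3 libraries that stood apart was added after seeing the data. The members and lists were chosen with earlier results of these data known. Values in each library are given for up to 3 members per branch and comparison with the largest change, and for Srebf1, Srebf2, Insig1 and Insig2. They are also given for Acss2 and Ch25h. Up to 3 other pathway genes are named per comparison by the largest called change.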

Additional observations from a re-analysis of the deposited data

Results flagged for a closer look

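By the interaction test, TGFβ-kept cells and cells without TGFβ differed in their Pam3 response for 19 of 80 tested genes among the members, the other genes of both pathways and the oxysterol and LXR genes (edgeR, adjusted p under 0.05). Of these, 8 were called higher, a share near the 10.3% of all tested genes, and 11 lower, against 5.67% of all tested genes. Each value is the log2 fold change with TGFβ minus that without. In the fatty acid branch it was -0.62 for Acsl3, -0.32 for Fasn, -0.31 for Scd2 and -0.22 for Scd1. In the sterol branch it was 0.44 for Hsd17b7, 0.25 for Idi1, -0.25 for Acat2 and -0.31 for Stard4, and among the control genes it was -0.25 for Srebf1. Outside the members it was -0.56 for Lpin1, -0.43 for Hacd2, -0.26 for Idh1, 0.35 for Nus1, 0.37 for Acsl4, 0.39 for Acsl1, -0.33 for Mylip, 0.48 for Nr1h3, 0.62 for Abca1 and 4.45 for Ch25h. With single libraries left out, the call of Acat2 was lost for 5 of the 12 libraries and those of Idi1, Scd1 and Srebf1 for 3 each, while that of Hacd2 was lost without Pam3 2, that of Abca1 without TGFβ 3 and that of Mylip without untreated 3. Levels of single genes were not tested for outlying libraries, since a group held 3.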

How the results depend on the processing

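No member changed sign where called under any setting run. With the TGFβ effects, the counts of called members stayed at 19 of 19 sterol and 10 of 10 fatty acid genes at rest, and at 18 or 19 and 10 with Pam3, under all settings. The fatty acid count of the Pam3 response without TGFβ (6) was 3 with no filter, 2 in the fit of the 6 libraries compared, 0 without the 3 libraries that stood apart, and 2 to 6 with single libraries left out; the sterol count (5) was 3 without those 3 libraries. With single libraries left out, the interaction count ran from 2 to 5 in the sterol branch (4 with all libraries) and from 0 to 1 among the control genes. Over all genes the counts ran from 1965 to 2729, 4856 to 6152, 6923 to 7580, 5984 to 7085 and 1902 to 2430 for the Pam3 response without and with TGFβ, the TGFβ effect without and with Pam3 and the interaction, in that order, with single libraries left out. Upper-quartile scaling moved the median of all genes by -0.062 to 0.031 and the share of calls that were higher from 53.0% to 41.5% for the Pam3 response with TGFβ and from 64.5% to 53.4% for the interaction. There it called 2 sterol genes higher and 8 lower, and 1 and 8 in the fatty acid branch, for the former, and 2 and 3, and 0 and 5, for the latter. Same-numbered libraries deviated together in 7 of 18 pairs (r above 0.1, range -0.174 to 0.3). Pairs among the libraries numbered 3 ran from 0.0332 to 0.3. Pairs with different numbers ran from -0.397 (untreated 3 and TGFβ 2) to 0.323 (Pam3 1 and TGFβ 2). These values do not settle whether the numbers pair the samples. With the replicate block, 2751, 5714, 7562, 6736 and 2393 genes were called in the same order, no call count of a branch moved by over 1.5 times, and the interaction count of the fatty acid branch was 5. Over all settings, calls of members were lost in 42 cases for the Pam3 response without TGFβ, from 9 genes, in 16 with TGFβ, and in 17 for the interaction. The smallest called change of a member was -0.13, for Fads2 in the Pam3 response with TGFβ, and it was lost in 3 settings.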
